A study of Homo sapiens with 12 samples.

Results

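Transcript levels of 45 genes of DNA replication and the G1/S transition were followed in 12 poly(A) RNA libraries from 2 cultured human lines. The genes were chosen by name. All 45 of 45 symbols were found among the 58735 genes of the deposited FPKM table (fragments per kilobase of gene, scaled by a total for each library). All 45 were among the 15518 genes with at least 1 FPKM in 3 or more libraries. Huh7-labelled cells were given geniposide (an iridoid glycoside from gardenia) for 48 h or were left untreated for the same time, and HepG2-labelled cells were handled in the same way, with 3 libraries in each of the 4 groups. Huh7 is a hepatocellular carcinoma line and HepG2 a hepatoblastoma line. No dose, genotype change or second agent is given in the labels, and each line stands for a single tumour. By its title the study linked geniposide to the oxidase DUOX1 and to ferroptosis, and the untreated cells are the comparison for each line.

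Chromosomal DNA is copied once per cell cycle. In G1 the origin recognition complex, CDC6 and CDT1 load the MCM2-7 helicase onto origins (licensing), and at the start of S phase CDC45 and the GINS complex join it to form the active CMG helicase. DNA polymerase alpha with primase then starts each strand, polymerases delta and epsilon extend it on the sliding clamp PCNA, RPA covers the single strands, and FEN1 and LIG1 finish the lagging strand. Many of these genes are transcribed at the G1/S boundary by E2F factors once cyclin-dependent kinases have inactivated the retinoblastoma protein. A bulk library cannot separate fewer cells in S phase from less RNA per cell.

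Each library held 15056655 to 17211659 recovered fragments. No pair of replicates agreed within counting noise, and all 12 were counted as samples. Library 3 of geniposide-treated Huh7-labelled cells stood apart from its group: its chi-square per degree of freedom over genes was 43.4 and 44.9 against libraries 1 and 2, while no other pair within a group exceeded 6.58. Where leaving it out changed a geniposide call on one of the 45 genes or a count of such calls, the value without it is given as well. Defining hepatocyte transcripts were near 0 in every library: of 10 markers none averaged 1 FPKM in any group, APOB (apolipoprotein B) had 0 fragments and ALB (albumin) had 6 fragments over the 12 libraries together, so the groups are called by their labels. Keratins KRT8 and KRT18 and the mesenchymal VIM, CDH2, FN1 and COL1A1 were at 1 FPKM or more. The epithelial EPCAM and CDH1 reached at most 0.503 and 0.460 FPKM in any library, and the mesenchymal COL1A2 had 0 fragments. The summed level of the 9 epithelial and mesenchymal markers moved with treatment: it was between 516 and 563 FPKM in geniposide-treated and between 766 and 792 FPKM in untreated HepG2-labelled libraries, and between 72.0 and 111 FPKM in geniposide-treated and between 115 and 117 FPKM in untreated Huh7-labelled libraries. The markers in that sum moved in opposite directions: in HepG2-labelled cells KRT8 had 156 to 167 FPKM with geniposide against 330 to 342 FPKM without, and VIM had 120 to 137 FPKM with geniposide against 75.1 to 80.9 FPKM without. Of 7 leukocyte and endothelial markers 1 averaged 1 FPKM or more in Huh7-labelled groups and 0 did so in HepG2-labelled groups, with sums between 0.916 and 1.68 FPKM in all libraries. The part of these shifts in the results was not tested.

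The promoters of 6 genes are shown because their transcripts carry the main patterns described here: E2F1 and CDT1 were higher with geniposide in both lines, MCM6 and POLA1 lower in both, E2F2 opposite between the lines, and SLBP lower in Huh7-labelled cells. Each sequence is the 160 bases before the RefSeq transcription start (GRCh38.p14), 5′ to 3′ on the strand of the gene, and capitals mark E2F-type matches (TTTGGCGC or TTTCCCGC, or their reverse complements GCGCCAAA and GCGGGAAA) and CCAAT boxes (CCAAT or ATTGG). They lie at chr20:33686386-33686545 (minus strand) for E2F1, chr16:88803629-88803788 (plus) for CDT1, chr2:135876444-135876603 (minus) for MCM6, chrX:24693758-24693917 (plus) for POLA1, chr1:23531234-23531393 (minus) for E2F2 and chr4:1712320-1712479 (minus) for SLBP. The RefSeq start lay 576 bases from the gene end given in the table for CDT1 and 236 bases for SLBP, and at most 19 bases for the other 4.
E2F1: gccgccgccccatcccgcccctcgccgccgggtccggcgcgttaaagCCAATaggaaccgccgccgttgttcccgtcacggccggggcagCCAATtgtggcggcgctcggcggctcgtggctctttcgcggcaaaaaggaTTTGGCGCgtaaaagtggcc
CDT1: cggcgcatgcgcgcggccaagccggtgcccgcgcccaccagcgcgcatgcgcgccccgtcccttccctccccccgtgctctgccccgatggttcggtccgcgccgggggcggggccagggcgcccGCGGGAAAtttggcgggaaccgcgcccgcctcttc
MCM6: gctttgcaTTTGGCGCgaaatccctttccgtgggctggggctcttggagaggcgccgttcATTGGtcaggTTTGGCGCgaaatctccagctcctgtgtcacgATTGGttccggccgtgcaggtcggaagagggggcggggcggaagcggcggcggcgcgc
POLA1: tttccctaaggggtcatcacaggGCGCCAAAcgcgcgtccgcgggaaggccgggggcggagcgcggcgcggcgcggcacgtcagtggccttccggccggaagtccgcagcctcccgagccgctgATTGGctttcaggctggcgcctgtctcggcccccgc
E2F2: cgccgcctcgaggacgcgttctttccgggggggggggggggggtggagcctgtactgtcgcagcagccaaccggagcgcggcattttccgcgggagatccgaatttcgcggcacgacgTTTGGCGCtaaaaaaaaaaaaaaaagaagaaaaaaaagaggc
SLBP: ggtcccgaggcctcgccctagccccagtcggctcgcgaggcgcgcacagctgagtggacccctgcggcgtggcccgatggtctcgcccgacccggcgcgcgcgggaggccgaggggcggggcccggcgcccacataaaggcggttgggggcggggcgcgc
E2F1, which activates this programme and its own gene, has an E2F-type match 20 bases before its start and CCAAT boxes at 113 and 70 bases. MCM6 has E2F-type matches at 152 and 90 bases and CCAAT boxes at 100 and 58 bases. The match lies 35 bases before the start in CDT1, 137 in POLA1 and 42 in E2F2, and the SLBP window holds neither motif in these letters. In windows of 300 bases (250 before and 50 after the start), 18 of the 39 members with a RefSeq entry (46.2%) held an E2F-type match, against 750 of all 27305 genes (2.75%). CCAAT boxes were found in 23 of 39 members (59.0%), against 39.7% of all genes. In the 6 sequences shown no E2F-type match overlaps a CCAAT box. Among the 28 members with an entry that fell in HepG2-labelled cells 14 held an E2F-type match, and among the other 11 members 4 did. A match is a run of letters and says nothing about binding. GINS4, MCM4, MCM5, POLD3, RPA2 and RPA3 had no entry.

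With geniposide most replication genes were lower in HepG2-labelled cells. Those of Huh7-labelled cells moved both ways, in shares nearer those of all genes. Of the 45 genes, 2 were higher and 32 lower in HepG2-labelled cells at an adjusted p under 0.05, where 21.0% and 21.5% of all tested genes were higher and lower. The median change of the members was −0.40 on the log2(FPKM + 1) scale, against 0.00 over all genes tested. In Huh7-labelled cells 6 members (13.3%) were higher and 11 (24.4%) lower, where 16.4% and 18.1% of all genes were. The median there was −0.05 against 0.00 for all genes. Changes were tested with limma over all 15518 genes with Benjamini-Hochberg adjustment, and each is given as geniposide minus untreated ± SE. The labels do not say that the 3 libraries of a group came from separate cultures, so p measures the spread between these libraries, which may be technical. The split in Huh7-labelled cells depended on the scaling: 10 higher and 7 lower with TPM, 11 and 7 when voom was run on recovered fragments, and 8 and 11 with median-of-ratios factors, with medians of 0.03, 0.03 and −0.03 (all genes 0.06, 0.07 and 0.01). The shares of all genes moved with it: 21.0% higher and 13.1% lower with TPM, 22.1% and 14.2% with voom, and 17.7% and 16.9% with median-of-ratios factors. In HepG2-labelled cells it was 2 and 29, 2 and 32, and 2 and 30 under the same scalings.

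**Figure D1:**
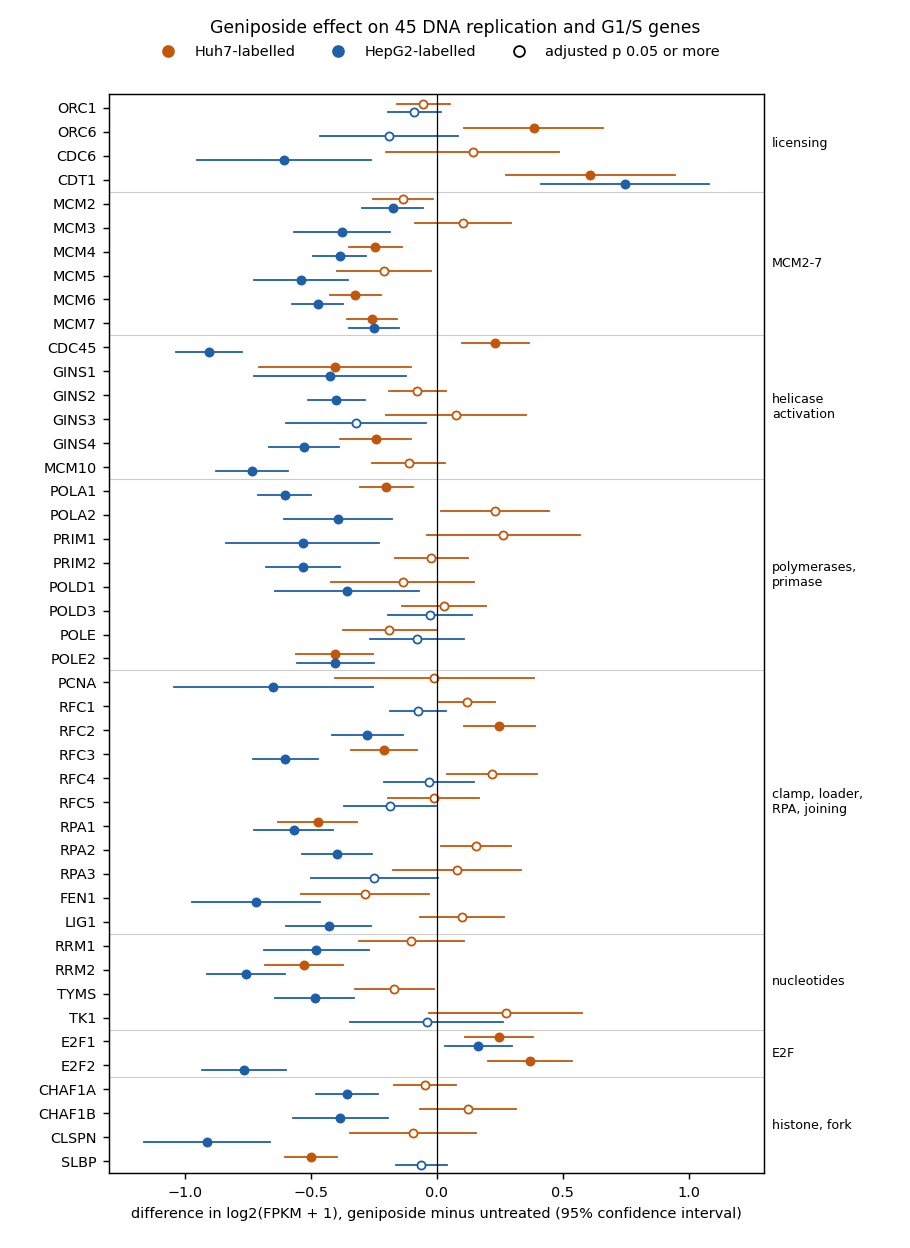
Change with geniposide in each of the 45 genes (points: limma difference in log2(FPKM + 1), geniposide minus untreated; bars: 95% confidence interval; orange Huh7-labelled, blue HepG2-labelled; open points have an adjusted p of 0.05 or more). Most blue points lie left of 0 (32 lower, 2 higher), and orange points lie on both sides (6 higher, 11 lower). Of all genes, 21.5% were lower and 21.0% higher in HepG2-labelled cells, and 18.1% lower and 16.4% higher in Huh7-labelled cells.

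Set side by side, 10 genes fell in both lines: the helicase subunits MCM4, MCM6 and MCM7, GINS1, GINS4, POLA1, POLE2, RFC3, RPA1 and RRM2. Both CDT1 and E2F1 rose in both lines. CDC45, RFC2 and E2F2 rose in Huh7-labelled and fell in HepG2-labelled cells. ORC6 passed only as a rise in Huh7-labelled cells and SLBP only as a fall there, 19 genes passed only as falls in HepG2-labelled cells, and 9 passed in neither line. How often all genes tested had each pair of calls was not counted. Whether these pairs were more common among the members is therefore not shown. In HepG2-labelled cells the 3 treated libraries lay below all 3 untreated libraries for 38 members and above them for 2, where 29.4% of all genes lay below and 29.4% above. In Huh7-labelled cells 15 members lay below and 9 above, where 22.6% and 21.3% of all genes did, and the groups overlapped for the other 21.

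Licensing genes did not move as a block. CDT1, which brings the helicase to origins and is destroyed once S phase begins, had 126, 141 and 82.7 FPKM in geniposide-treated Huh7-labelled libraries, against 75.7, 72.5 and 74.0 FPKM in untreated ones. In HepG2-labelled cells it had 103, 109 and 110 FPKM with geniposide, against 66.0, 65.1 and 59.5 FPKM without. All treated values were above all untreated values in both lines, but treated Huh7-labelled library 3 was closest to them. CDT1 rose by 0.75 ± 0.15 in HepG2-labelled cells (adjusted p = 0.00232) and by 0.61 ± 0.15 in Huh7-labelled cells (adjusted p = 0.0100). The change in Huh7-labelled cells was 0.84 without library 3 (adjusted p = 4.28e-06), and fitting the Huh7-labelled libraries by themselves ended the call (adjusted p = 0.0911). Its inhibitor geminin, GMNN, fell in both lines, to 33.0 ± 2.41 FPKM against 42.8 ± 0.744 FPKM in Huh7-labelled cells (adjusted p = 0.00105) and to 30.0 ± 1.91 FPKM against 38.9 ± 0.384 FPKM in HepG2-labelled cells (adjusted p = 0.000694; SD, n = 3 each).

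CDC6, the loading ATPase, fell to 14.9 ± 1.17 FPKM in geniposide-treated HepG2-labelled cells, against 23.2 ± 0.125 FPKM in untreated ones (−0.61 ± 0.16, adjusted p = 0.00923). In Huh7-labelled cells it had 14, 14.4 and 23.9 FPKM with geniposide, against 15.4, 15.3 and 15.1 FPKM without (0.14 ± 0.16, adjusted p = 0.531), so library 3 alone lay above the untreated range. Without library 3 its value there was −0.10 (adjusted p = 0.166). ORC6, a subunit of the origin recognition complex, had 17.1, 18 and 26.0 FPKM with geniposide, against 15.8, 15 and 14.5 FPKM without in Huh7-labelled cells (0.38 ± 0.12, adjusted p = 0.0347). Its change was 0.20 without treated library 3 (adjusted p = 0.0152), and its call ended when any of the 3 untreated Huh7-labelled libraries was left out (adjusted p 0.0610 to 0.1). In HepG2-labelled cells ORC6 averaged 9.90 ± 0.731 FPKM with geniposide and 11.4 ± 0.175 FPKM without (−0.19 ± 0.12, adjusted p = 0.254, and 0.00983 without treated Huh7-labelled library 3). ORC1, its largest subunit and an ATPase, passed in neither line (17.0 ± 0.678 against 17.7 ± 0.611 FPKM in Huh7-labelled and 22.3 ± 0.839 against 23.7 ± 0.475 FPKM in HepG2-labelled cells).

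All 6 subunits of the MCM2-7 helicase fell in HepG2-labelled cells, by 0.18 to 0.54 on the log2 scale, and 3 of 6 fell in Huh7-labelled cells. Of all genes tested, 21.5% fell in HepG2-labelled and 18.1% in Huh7-labelled cells. MCM6 had 33.1, 35.0 and 33.3 FPKM in geniposide-treated HepG2-labelled libraries, against 49.2, 47.8 and 45 FPKM in untreated ones (−0.47 ± 0.05, adjusted p = 1.92e-05). In Huh7-labelled cells it had 51.5, 51.8 and 54.3 FPKM with geniposide, against 66.4, 65.4 and 66.0 FPKM without (−0.32 ± 0.05, adjusted p = 0.000434). The groups of MCM6 were apart in both lines, with treated library 3 of the Huh7-labelled cells in step with the others. MCM4 and MCM7 also fell in both lines: MCM4 by 0.38 in HepG2-labelled and 0.24 in Huh7-labelled cells (adjusted p = 9.68e-05 and 0.00265), and MCM7 by 0.25 and 0.26 (adjusted p = 0.00108 and 0.00141). The microRNA genes MIR25, MIR93 and MIR106B lie within MCM7 on its own strand and AP4M1 overlaps it on the other, so fragments there cannot be assigned by strand.

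MCM2 showed the smallest fall of the 6 in HepG2-labelled cells. It had 55.5, 55.7 and 50.3 FPKM with geniposide, against 61.5, 61.9 and 59.1 FPKM without (−0.18 ± 0.05, adjusted p = 0.0231), and the call was lost with TPM scaling (−0.11, adjusted p = 0.171), with median-of-ratios factors (adjusted p = 0.0516) and without untreated library 1 or 2 or treated library 3 of that line (adjusted p 0.0702 to 0.0821). In Huh7-labelled cells MCM2 had 51.4, 53.8 and 48.8 FPKM with geniposide, against 57.9, 56.2 and 55.2 FPKM without (−0.13 ± 0.05, adjusted p = 0.0795). The treated values of MCM2 were below the untreated ones in both lines, with ratios of the means of 0.884 in HepG2-labelled and 0.910 in Huh7-labelled cells. MCM5 fell to 28.5 ± 1.32 FPKM against 41.8 ± 0.680 FPKM in HepG2-labelled cells (adjusted p = 0.000450), and had 30.1 ± 4.23 against 34.8 ± 0.426 FPKM in Huh7-labelled cells (adjusted p = 0.0779). MCM3 fell by 0.38 in HepG2-labelled cells (adjusted p = 0.00479). Its Huh7-labelled libraries had 102, 102 and 133 FPKM with geniposide, against 105, 105 and 103 FPKM without (0.10, adjusted p = 0.397, and −0.02 with adjusted p = 0.523 without library 3). Within the ring MCM5 was the lowest subunit in every group, and the highest stood 3.32 to 4.09 times above it. MCM7 was the highest in 3 groups and MCM3 in geniposide-treated Huh7-labelled cells, whose mean for MCM3 rests on library 3.

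Of the 6 helicase activation genes, 5 fell in HepG2-labelled cells, and in Huh7-labelled cells 1 rose and 2 fell. The shares of all genes were 21.5% lower in HepG2-labelled cells, and 16.4% higher and 18.1% lower in Huh7-labelled cells. CDC45, the CMG subunit that joins the MCM ring at origin firing, had 11.2, 11.1 and 11.8 FPKM in geniposide-treated HepG2-labelled libraries, against 22.0, 23.1 and 21.5 FPKM in untreated ones. That is 0.513 times the untreated mean (−0.90 ± 0.06, adjusted p = 1.60e-06). In Huh7-labelled cells CDC45 had 43.9, 45.9 and 48.6 FPKM with geniposide, against 41.7, 39.3 and 36.4 FPKM without (0.23 ± 0.06, adjusted p = 0.0124). CDC45 thus lay below the untreated range in one line and above it in the other, and the rise was lost in a fit of Huh7-labelled cells alone (adjusted p = 0.0628) and without untreated Huh7-labelled library 3 (adjusted p = 0.0547). MCM10, a scaffold that binds CMG and polymerase alpha, had 5.2, 4.78 and 4.79 FPKM with geniposide, against 9.68, 8.24 and 8.68 FPKM without in HepG2-labelled cells (−0.73 ± 0.06, adjusted p = 9.97e-06). In Huh7-labelled cells MCM10 had 18.1, 17.7 and 19.95 FPKM with geniposide, against 20.003, 20.41 and 20.005 FPKM without (−0.11 ± 0.06, adjusted p = 0.213). Without treated library 3, whose value was next to the untreated ones, MCM10 passed there as a fall of 0.16 (adjusted p = 0.0469).

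The 4 GINS subunits kept the order GINS2, GINS1, GINS4, GINS3 in all 4 groups. GINS4 fell in both lines, by 0.53 in HepG2-labelled cells (adjusted p = 7.97e-05) and by 0.24 in Huh7-labelled cells (adjusted p = 0.0129). The Huh7-labelled call of GINS4 was lost without untreated library 2 (adjusted p = 0.0582), with TPM scaling (adjusted p = 0.0867) and when Huh7-labelled libraries were fitted by themselves (adjusted p = 0.0736). GINS1 fell by 0.42 in HepG2-labelled cells (adjusted p = 0.0284) and by 0.40 in Huh7-labelled cells (adjusted p = 0.0415), where the treated libraries had 12.4, 12.1 and 19.2 FPKM, against 18.6, 19.9 and 19.1 FPKM in untreated ones. Treated library 3 lay within the untreated range. The Huh7-labelled call of GINS1 was lost in 16 of 20 alternatives, and the change was −0.61 without treated library 3 (adjusted p = 3.12e-05). The HepG2-labelled call was lost in 7 of 20, with adjusted p up to 0.0872. GINS2 fell by 0.40 in HepG2-labelled cells (adjusted p = 0.000128). GINS3 passed in neither line, at 7 ± 1.74 against 6.5 ± 0.572 FPKM in Huh7-labelled and 2.88 ± 0.129 against 3.85 ± 0.271 FPKM in HepG2-labelled cells. Without treated Huh7-labelled library 3, GINS3 passed as a fall of 0.32 in HepG2-labelled cells (adjusted p = 0.00254).

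Polymerase alpha and primase, which lay down the first primer, were lower in HepG2-labelled cells in all 4 subunits: POLA1 and POLA2 fell by 0.60 and 0.39, and the primase subunits PRIM1 and PRIM2 fell by 0.53 each (adjusted p = 4.54e-06, 0.00742, 0.00941 and 9.96e-05). POLA1, the catalytic subunit, had 16.1, 16.2 and 16.2 FPKM with geniposide, against 24.7, 26.5 and 24.3 FPKM without. In Huh7-labelled cells POLA1 had 16.3, 15.2 and 16.4 FPKM with geniposide, against 18.3, 18.8 and 18.4 FPKM without (−0.20 ± 0.05, adjusted p = 0.00779, but 0.0815 with TPM scaling and 0.0868 with voom). The groups of POLA1 did not overlap in either line. POLA2, PRIM1 and PRIM2 had changes of 0.23, 0.26 and −0.02 in Huh7-labelled cells (adjusted p = 0.0911, 0.166 and 0.846), and PRIM1 passed as a rise of 0.40 without treated library 3 (adjusted p = 0.0253).

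POLE2, an accessory subunit of the leading-strand polymerase epsilon, fell in both lines by almost the same amount. It had 6.71, 5.98 and 5.92 FPKM in geniposide-treated Huh7-labelled libraries, against 8.34, 8.44 and 8.81 FPKM in untreated ones (−0.41 ± 0.07, adjusted p = 0.00119). HepG2-labelled libraries had 4.26, 3.85 and 4.54 FPKM with geniposide, against 5.46, 6 and 6.2 FPKM without (−0.40 ± 0.07, adjusted p = 0.000805). The difference of the POLE2 effects was 0.00, with a 95% confidence interval of −0.21 to 0.22. Its catalytic partner POLE passed in neither line (15.2 ± 1.69 against 17.4 ± 0.176 FPKM in Huh7-labelled, 10.7 ± 1.12 against 11.3 ± 0.319 FPKM in HepG2-labelled cells). Of polymerase delta, the catalytic POLD1 fell by 0.36 in HepG2-labelled cells (adjusted p = 0.0464), a call lost in 12 of 20 alternatives, among them each that left out a HepG2-labelled library (adjusted p 0.0831 to 0.124). Its Huh7-labelled libraries had 42.1, 43.0 and 27.8 FPKM with geniposide, against 41.3, 41.2 and 39.7 FPKM without (−0.14, adjusted p = 0.463, and 0.06 with adjusted p = 0.174 without library 3), with library 3 far below the rest. The HepG2-labelled fall had an adjusted p of 8.23e-06 without that library. The accessory POLD3 passed in neither line (12.3 ± 1.45 against 12 ± 0.285 FPKM, and 9.74 ± 0.235 against 9.95 ± 0.607 FPKM).

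Clamp, loader and single-strand binding genes split within their complexes. PCNA, the sliding clamp, had 128, 127 and 138 FPKM in geniposide-treated HepG2-labelled libraries, against 205, 206 and 206 FPKM in untreated ones (−0.65 ± 0.18, adjusted p = 0.0131). In Huh7-labelled cells PCNA had 172, 168 and 306 FPKM with geniposide, against 212, 205 and 207 FPKM without (−0.01 ± 0.18, adjusted p = 0.988). Libraries 1 and 2 lay below the untreated range and library 3 far above it, and without library 3 PCNA passed as a fall of 0.29 (adjusted p = 0.000221). FEN1, the flap nuclease, had the same pattern: it fell by 0.72 in HepG2-labelled cells (adjusted p = 0.000532), and had 44.6, 48.4 and 66.2 FPKM with geniposide, against 64.5, 62.5 and 64.9 FPKM without in Huh7-labelled cells (adjusted p = 0.0788, and a fall of 0.45 with adjusted p = 6.35e-05 without library 3). The ligase LIG1 fell by 0.43 in HepG2-labelled cells (adjusted p = 0.00103). In Huh7-labelled cells LIG1 had 16.4, 17.0 and 13.5 FPKM with geniposide, against 14.5, 14.3 and 14.6 FPKM without (adjusted p = 0.350, and a rise of 0.19 with adjusted p = 0.00847 without library 3).

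In the clamp loader, RFC2 and RFC3 both fell in HepG2-labelled cells and were called in opposite directions in Huh7-labelled cells. RFC3 had 20.4, 19.2 and 18.9 FPKM with geniposide, against 32, 28.8 and 29.5 FPKM without in HepG2-labelled cells (−0.60 ± 0.06, adjusted p = 1.94e-05). In Huh7-labelled cells RFC3 had 33.0, 32.4 and 36.3 FPKM with geniposide, against 38.6, 40.3 and 38.9 FPKM without (−0.21 ± 0.06, adjusted p = 0.0183, but 0.0529 to 0.0676 without treated library 1 or 2 or untreated library 2, and 0.126 with TPM scaling). All treated values of RFC3 were below the untreated ones. RFC2 had 37.4, 35.2 and 39.2 FPKM with geniposide, against 46.3, 45.7 and 43.9 FPKM without in HepG2-labelled cells (−0.28 ± 0.06, adjusted p = 0.00508). In Huh7-labelled cells RFC2 had 42.8, 47.0 and 49.2 FPKM with geniposide, against 41.1, 37.9 and 37.4 FPKM without (0.25 ± 0.06, adjusted p = 0.0122, but 0.0512 without untreated library 3 and 0.0578 with Huh7-labelled libraries fitted by themselves). RFC1, RFC4 and RFC5 passed in neither line. RFC1 averaged 16.1 ± 1.14 against 14.8 ± 0.305 FPKM in Huh7-labelled and 13.3 ± 0.158 against 14 ± 0.103 FPKM in HepG2-labelled cells, RFC4 21.3 ± 2.5 against 18.1 ± 0.958 and 25.4 ± 1.27 against 25.9 ± 1.40 FPKM, and RFC5 26.8 ± 3.52 against 26.9 ± 0.396 and 17.5 ± 1.28 against 19.98 ± 0.698 FPKM. Without treated Huh7-labelled library 3, RFC4 passed as a rise of 0.30 in Huh7-labelled cells (adjusted p = 0.00462) and RFC5 and RFC1 as falls of 0.19 and 0.07 in HepG2-labelled cells (adjusted p = 0.00751 and 0.0365).

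RPA1 and RPA2, the large and middle subunits of the single-strand binding complex, also differed. RPA1 had 28.2, 28.2 and 22.9 FPKM in geniposide-treated Huh7-labelled libraries, against 36.9, 38.0 and 35.9 FPKM in untreated ones (−0.47 ± 0.07, adjusted p = 0.000605). In HepG2-labelled cells RPA1 had 48.7, 47.5 and 49.3 FPKM with geniposide, against 72.9, 73.6 and 70.6 FPKM without (−0.57 ± 0.07, adjusted p = 0.000107). It fell in both lines with no overlap. RPA2 had 25.2, 22.8 and 24.2 FPKM with geniposide, against 30.3, 32.4 and 33.4 FPKM without in HepG2-labelled cells (−0.40 ± 0.06, adjusted p = 0.000488). In Huh7-labelled cells RPA2 had 63.6, 67.8 and 74.0 FPKM with geniposide, against 61.8, 61.3 and 60.5 FPKM without (0.16 ± 0.06, adjusted p = 0.0774). Those RPA2 groups did not overlap, and it passed as a rise under TPM, median-of-ratios and voom scaling. The smallest subunit, RPA3, passed in neither line (13.4 ± 2.38 against 12.6 ± 1.14 FPKM, and 10.3 ± 0.341 against 12.5 ± 1.36 FPKM), but without treated Huh7-labelled library 3 it passed as a fall of 0.25 in HepG2-labelled cells (adjusted p = 0.0279). RPA3 lies within UMAD1 on the other strand and RPA1 overlaps SMYD4, so their fragments cannot be told apart where they overlap.

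Among the nucleotide suppliers RRM2, the regulated subunit of ribonucleotide reductase, fell in both lines. It had 17.2, 17.0 and 19.99 FPKM in geniposide-treated Huh7-labelled libraries, against 25.7, 25.9 and 27.6 FPKM in untreated ones (−0.53 ± 0.07, adjusted p = 0.000292). HepG2-labelled libraries had 13.5, 13.0 and 14.4 FPKM with geniposide, against 24.1, 24.8 and 22.2 FPKM without (−0.76 ± 0.07, adjusted p = 1.42e-05). The RRM2 groups were apart in both lines. RRM1, the large subunit, fell by 0.48 in HepG2-labelled cells (adjusted p = 0.00196), and had 49.3, 50.3 and 66.7 FPKM with geniposide, against 59.3, 58.4 and 59.2 FPKM without in Huh7-labelled cells (adjusted p = 0.449, and a fall of 0.24 with adjusted p = 0.000212 without library 3).

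TYMS, thymidylate synthase, had 19.96, 21.7 and 21.2 FPKM with geniposide, against 28.6, 30.6 and 29.9 FPKM without in HepG2-labelled cells (−0.48 ± 0.07, adjusted p = 0.000297). In Huh7-labelled cells TYMS had 16.5, 16.4 and 19.8 FPKM with geniposide, against 19.7, 20.5 and 19.1 FPKM without (−0.17 ± 0.07, adjusted p = 0.0895). Treated library 3 lay within the untreated range, and without it TYMS passed as a fall of 0.26 (adjusted p = 0.0013). TYMS overlaps ENOSF1 and TYMSOS on the other strand. Other members overlap further genes, among them FEN1 with FADS2 over 4265 bases and CHAF1B with MORC3 over 771 bases, each on the same strand. TK1, the salvage thymidine kinase, passed in neither line. It had 121, 125 and 134 FPKM with geniposide, against 134, 135 and 123 FPKM without in HepG2-labelled cells (−0.04 ± 0.14, adjusted p = 0.872). In Huh7-labelled cells TK1 had 60.9, 66.5 and 97.2 FPKM with geniposide, against 61.4, 62.7 and 57.6 FPKM without (0.27 ± 0.14, adjusted p = 0.153, and 0.07 with adjusted p = 0.372 without library 3), with library 3 alone far above.

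The E2F activators themselves rose in Huh7-labelled cells and split in HepG2-labelled cells. E2F1 had 41.2, 44.9 and 42.6 FPKM in geniposide-treated Huh7-labelled libraries, against 37.2, 35.7 and 35.0 FPKM in untreated ones (0.25 ± 0.06, adjusted p = 0.00965). HepG2-labelled libraries had 28.0, 29.6 and 29.5 FPKM with geniposide, against 25.8, 27.9 and 23.8 FPKM without (0.16 ± 0.06, adjusted p = 0.0486). The second call of E2F1 rests on a narrow gap: it was lost in 12 of 20 alternatives, and the change was 0.11 without untreated HepG2-labelled library 3 (adjusted p = 0.190). E2F2 had 18.9, 18.2 and 21.4 FPKM with geniposide, against 16.3, 13.5 and 14.9 FPKM without in Huh7-labelled cells (0.37 ± 0.07, adjusted p = 0.00336). In HepG2-labelled cells E2F2 had 5.15, 5.5 and 5.40 FPKM with geniposide, against 9.79, 10.1 and 9.47 FPKM without, or 0.547 times the untreated mean (−0.76 ± 0.07, adjusted p = 2.00e-05). Treated and untreated E2F2 values did not overlap in either line, and they moved in opposite directions, also without treated Huh7-labelled library 3 (0.31, adjusted p = 0.00457, in Huh7-labelled cells).

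CLSPN and SLBP, from the group that handles fork signalling and histones, showed a fall in one line each. CLSPN (claspin), an adaptor of the fork checkpoint kinase CHEK1, had 4.40, 4.15 and 3.64 FPKM in geniposide-treated HepG2-labelled libraries, against 8.36, 8.36 and 8.78 FPKM in untreated ones. At 0.478 times the untreated mean it fell the furthest of the 45 genes there (−0.91 ± 0.11, adjusted p = 0.000103). In Huh7-labelled cells CLSPN had 10.7, 9.80 and 14.4 FPKM with geniposide, against 12.5, 13.0 and 11.6 FPKM without (−0.09 ± 0.11, adjusted p = 0.574, and a fall of 0.24 with adjusted p = 0.0172 without library 3). SLBP, which binds the stem-loop of histone mRNAs, had 47.5, 47.2 and 45.6 FPKM with geniposide, against 67.5, 65.2 and 67.0 FPKM without in Huh7-labelled cells (−0.50 ± 0.05, adjusted p = 3.16e-05). In HepG2-labelled cells SLBP had 39.0, 41.1 and 43.2 FPKM with geniposide, against 42.7, 43.8 and 42.2 FPKM without (−0.06 ± 0.05, adjusted p = 0.330), and the groups overlapped. The histone chaperone subunits CHAF1A and CHAF1B fell by 0.35 and 0.38 in HepG2-labelled cells (adjusted p = 0.000468 and 0.00422). Their changes in Huh7-labelled cells were −0.05 and 0.12 (adjusted p = 0.575 and 0.301), and CHAF1B passed as a rise of 0.22 without treated library 3 (adjusted p = 0.0142).

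**Figure D2:**
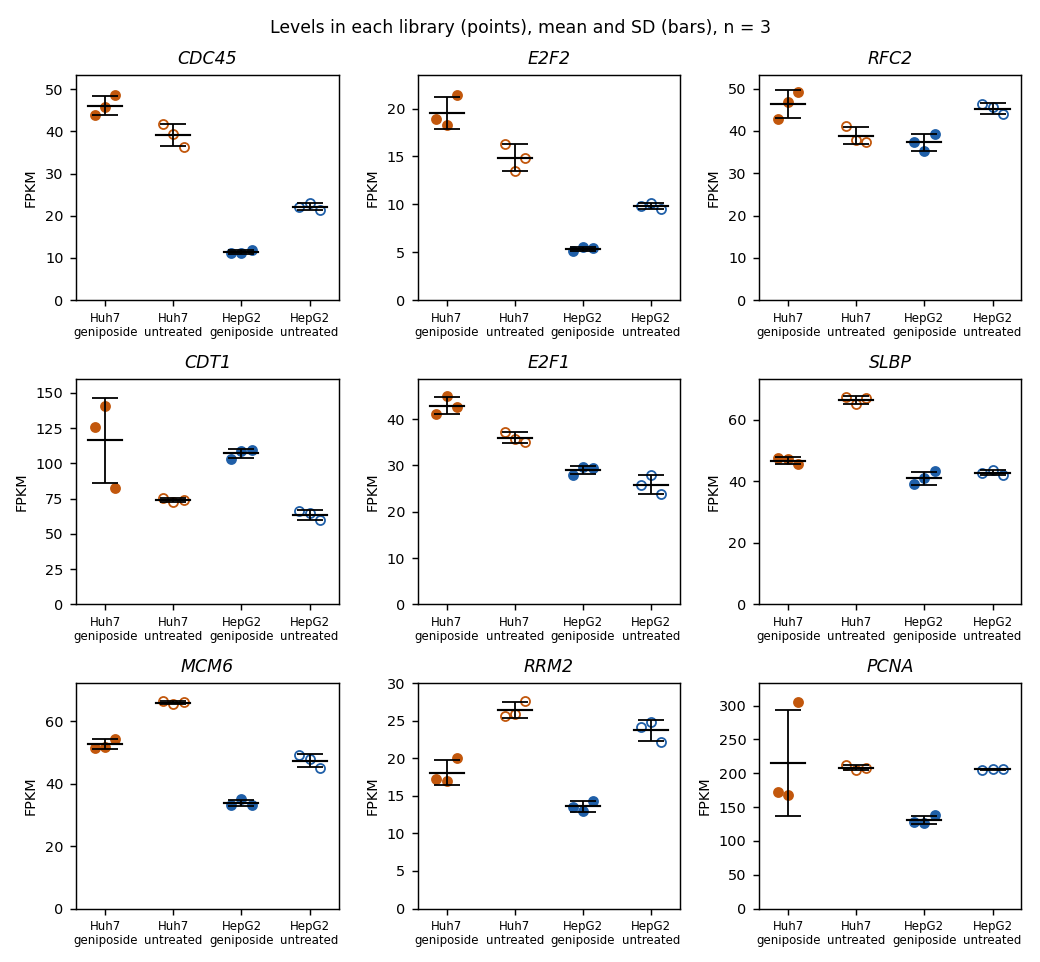
Levels of 9 genes in FPKM in each library (filled points geniposide, open points untreated; bars mean and SD, n = 3). CDC45, E2F2 and RFC2 moved in opposite directions between the lines, CDT1 and E2F1 were higher with geniposide in both, SLBP was lower in Huh7-labelled cells, MCM6 and RRM2 were lower in both, and PCNA shows treated Huh7-labelled library 3 at 306 FPKM.

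Whether the response differed between the lines was tested as the HepG2-labelled change minus the Huh7-labelled change. Of the 45 genes 20 had a lower and 1 a higher effect in HepG2-labelled cells, where 13.7% and 14.1% of all genes did, with a median difference of −0.32 (all genes 0.00). CDC45 and E2F2 differed most, by −1.14 ± 0.08 and −1.13 ± 0.11 (adjusted p = 1.65e-05 and 6.24e-05). MCM10 differed by −0.62 ± 0.09 and RPA2 by −0.55 ± 0.09 (adjusted p = 0.000859 and 0.00139), RFC2 by −0.52 ± 0.09 (adjusted p = 0.00208), and SLBP by 0.44 ± 0.07 in the other direction (adjusted p = 0.000925). For the 10 genes that fell in both lines, the difference passed in POLA1, RFC3 and GINS4 (adjusted p = 0.00166, 0.00608 and 0.0367), each with the larger fall in HepG2-labelled cells. GINS4, ORC6, CDC6 and TYMS lost this call in 9 to 11 of 19 alternatives. Without treated Huh7-labelled library 3 the 21 calls held, with CDC45 at −1.10, E2F2 at −1.07 and CDC6 at −0.51, and MCM4, MCM5, POLD1, PCNA, RFC1, RFC4, RPA1, FEN1 and RRM1 also passed, each with the lower effect in HepG2-labelled cells. Of all genes 20.2% then had a lower and 19.6% a higher effect in HepG2-labelled cells. CDT1 and E2F1 had differences of 0.14 (95% confidence interval −0.34 to 0.61) and −0.08 (−0.27 to 0.11). Over the 45 genes the effects in the 2 lines had a Spearman correlation of 0.28, and over all genes tested 0.36, given as a description across genes that share libraries.

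Treated Huh7-labelled library 3 decided many of the Huh7-labelled values. For 8 genes (CDC6, MCM3, PRIM2, PCNA, RFC5, FEN1, RRM1 and CLSPN) libraries 1 and 2 were below all untreated values and library 3 above them, and for POLD1, POLD3 and LIG1 the reverse held. How many of all genes had these patterns was not counted. Library 3 departed about as far over all genes: its median absolute log2 gap to the mean of libraries 1 and 2 was 0.233, against 0.248 over the members. The median of the 45 genes against the untreated mean was −0.11, −0.06 and 0.00 in treated libraries 1, 2 and 3, while the 3 treated HepG2-labelled libraries had −0.40, −0.41 and −0.39. Without library 3, 10 members rose and 17 fell in Huh7-labelled cells, where 22.6% and 23.5% of all genes did. In HepG2-labelled cells, whose tests share the estimate of the spread, 2 then rose and 37 fell, where 26.5% and 27.3% of all genes did. Without untreated Huh7-labelled library 3 the 6 rises were 3, since ORC6, CDC45 and RFC2 no longer passed. Of all genes 12.5% rose in that fit.

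**Figure D3:**
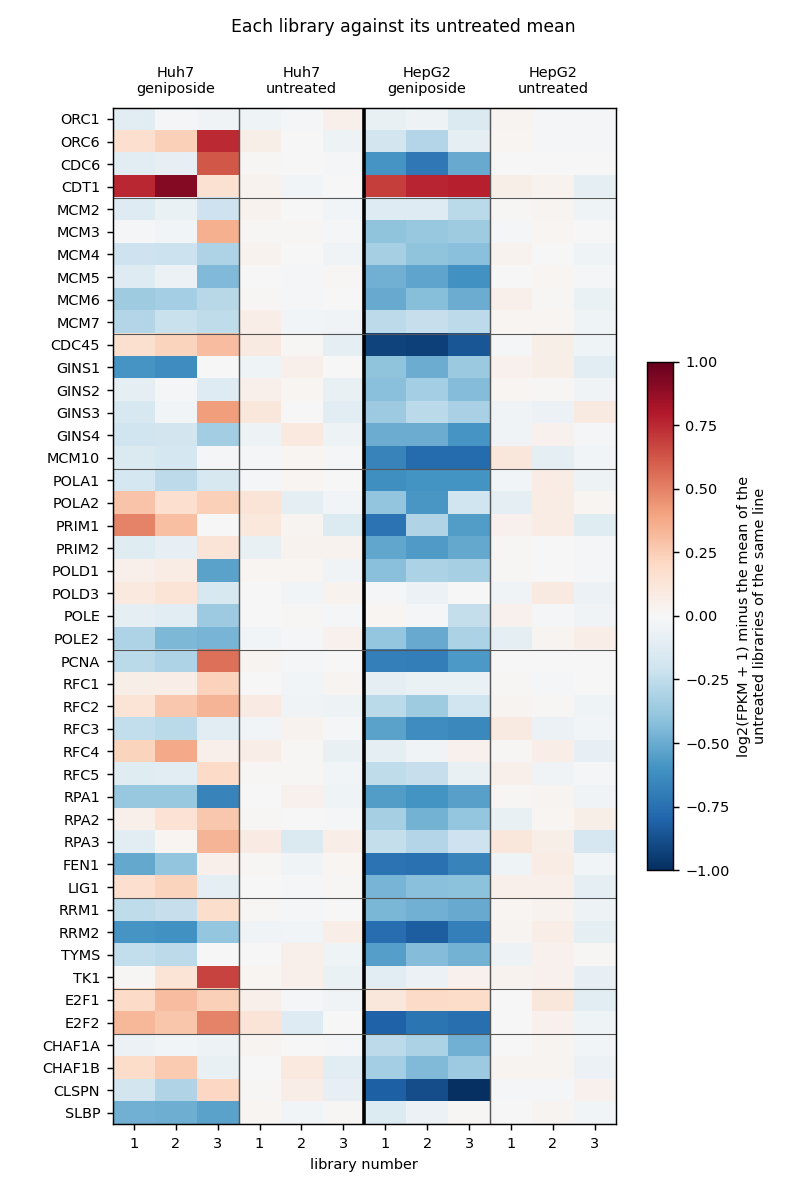
Each library against the untreated mean of its line for the 45 genes (colour: difference in log2(FPKM + 1), blue lower, red higher, scale limited to −1 and 1). The 3 treated HepG2-labelled columns look alike, with medians of −0.40, −0.41 and −0.39, and the third treated Huh7-labelled column differs from the first and second in genes such as PCNA, CDC6 and TK1.

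Between the untreated cultures, HepG2-labelled cells had 17 members (37.8%) higher and 19 (42.2%) lower than Huh7-labelled cells, where 36.1% and 35.8% of all genes were. The median of all genes was −0.01 in this comparison and −0.27 with TPM scaling. TPM gave 10 members higher and 28 lower, where 27.3% and 47.3% of all genes were. With voom on the recovered fragments the counts were 9 and 28, where 27.1% and 47.3% of all genes were. Without treated Huh7-labelled library 3 the counts were 18 higher and 25 lower, where 39.0% of all genes were higher and 39.0% lower. Line cannot be told apart here from anything else that differed between the 2 sets of cultures. RRM1 differed most: it averaged 354 ± 10.5 FPKM in untreated HepG2-labelled and 59.0 ± 0.488 FPKM in untreated Huh7-labelled cells, 6 times as high (2.56 ± 0.09, adjusted p = 7.51e-10, and 2.30 with TPM). Its partner RRM2 averaged 23.7 ± 1.34 FPKM in untreated HepG2-labelled and 26.4 ± 1.05 FPKM in untreated Huh7-labelled cells (−0.15 ± 0.07, adjusted p = 0.0768, and 0.0188 without treated Huh7-labelled library 3), so the ratio of RRM1 to RRM2 was 14.9 in untreated HepG2-labelled and 2.24 in untreated Huh7-labelled cells. TK1 was also higher in untreated HepG2-labelled cells, at 131 ± 6.26 FPKM against 60.5 ± 2.61 FPKM (1.10 ± 0.14, adjusted p = 2.50e-05).

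RPA1 and RPA2 exchanged places between the lines. RPA1 averaged 72.4 ± 1.57 FPKM in untreated HepG2-labelled against 36.9 ± 1.05 FPKM in untreated Huh7-labelled cells (0.95 ± 0.07, adjusted p = 3.37e-07), and RPA2 32 ± 1.58 FPKM against 61.2 ± 0.633 FPKM (−0.91 ± 0.06, adjusted p = 1.60e-07). RPA2 was the more abundant per length in Huh7-labelled cells and RPA1 in HepG2-labelled cells, with or without geniposide. Helicase activation genes were lower in untreated HepG2-labelled cells in 5 of 6 cases, where 35.8% of all genes were. MCM10 was at 8.87 ± 0.735 against 20.1 ± 0.235 FPKM (−1.10 ± 0.06, adjusted p = 4.19e-08) and CDC45 at 22.2 ± 0.832 against 39.1 ± 2.66 FPKM (−0.79 ± 0.06, adjusted p = 3.75e-07). The highest member was RRM1 in untreated HepG2-labelled cells (354 FPKM) and PCNA in untreated Huh7-labelled cells (208 FPKM). POLA2 was the lowest in every group, at 2.80 FPKM in untreated HepG2-labelled and 4.05 FPKM in untreated Huh7-labelled cells, and its count was 125 to 549 fragments per library. PCNA averaged 206 ± 0.534 FPKM in untreated HepG2-labelled and 208 ± 3.73 FPKM in untreated Huh7-labelled cells (−0.02, 95% confidence interval −0.41 to 0.38, adjusted p = 0.935).

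**Figure D4:**
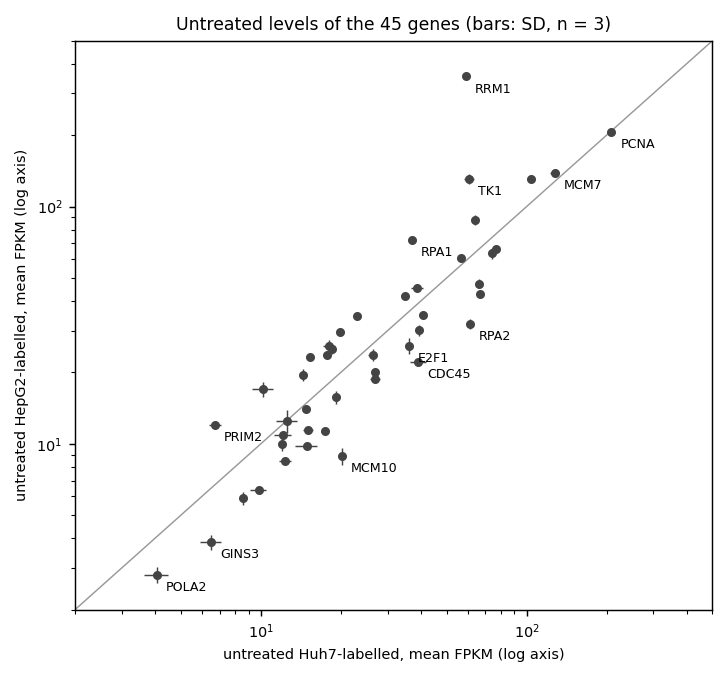
Mean level of each of the 45 genes in untreated HepG2-labelled cells (vertical) against untreated Huh7-labelled cells (horizontal), in FPKM on log axes, with SD (n = 3) as bars and the line of equality. RRM1 lies far above the line (354 against 59.0 FPKM), with RPA1 and TK1 also above it, and MCM10, CDC45 and RPA2 lie below it.

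Other genes of the same processes were read from further lists. Of 36 further replication genes that entered the fit, 2 rose and 21 fell in HepG2-labelled cells (median −0.24), and 6 rose and 10 fell in Huh7-labelled cells (median −0.10). Over all genes tested 21.0% rose and 21.5% fell in HepG2-labelled cells, and 16.4% rose and 18.1% fell in Huh7-labelled cells. Without treated Huh7-labelled library 3 these counts were 3 and 24 in HepG2-labelled cells, and 7 and 15 in Huh7-labelled cells. Of all genes, 26.5% then rose and 27.3% fell in HepG2-labelled cells, and 22.6% and 23.5% in Huh7-labelled cells. DSCC1, part of an alternative clamp loader, fell to 5.41 ± 0.168 FPKM with geniposide against 10.7 ± 0.751 FPKM without in HepG2-labelled cells (adjusted p = 4.00e-06), and to 12.9 ± 0.950 against 17.5 ± 0.785 FPKM in Huh7-labelled cells (adjusted p = 0.000885). The topoisomerase TOP1 fell by 0.34 and 0.69 in HepG2-labelled and Huh7-labelled cells, and POLE3 by 0.36 and 0.34 (adjusted p = 0.00064, 1.45e-05, 0.000336 and 0.000886). The fork protector TIPIN fell to 3.39 ± 0.0860 FPKM with geniposide against 6.32 ± 0.338 FPKM without in HepG2-labelled cells (adjusted p = 6.75e-05), and its change in Huh7-labelled cells was −0.14 (adjusted p = 0.240, and a fall of 0.24 with adjusted p = 0.0115 without library 3). POLD2, CDC7 and WDHD1 were called in opposite directions, as CDC45, RFC2 and E2F2 were. POLD2, the delta subunit that binds POLD1, fell by 0.58 in HepG2-labelled cells (adjusted p = 4.03e-05) and rose by 0.25 in Huh7-labelled cells (adjusted p = 0.0117). The kinase CDC7, which fires origins, fell by 0.21 and rose by 0.22 (adjusted p = 0.00224 and 0.00263), and the fork protein WDHD1 fell by 0.22 and rose by 0.33 (adjusted p = 0.00895 and 0.00128).

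Of 30 regulators of G1/S, 4 rose and 12 fell in HepG2-labelled cells (median −0.17), and 8 rose and 9 fell in Huh7-labelled cells (median 0.07), against the same 21.0% and 21.5%, and 16.4% and 18.1%, of all genes. With treated Huh7-labelled library 3 left out these were 7 and 15, and 9 and 9, against 26.5% and 27.3%, and 22.6% and 23.5%, of all genes. Cyclin D1, CCND1, which opens the G1/S pathway with CDK4 and CDK6, fell to 19.7 ± 0.750 FPKM with geniposide against 43.2 ± 1.3 FPKM without in HepG2-labelled cells (−1.10 ± 0.12, adjusted p = 3.99e-05), and to 8.68 ± 1.92 against 25.2 ± 1.15 FPKM in Huh7-labelled cells (−1.46 ± 0.12, adjusted p = 1.48e-05). Cyclin E2 (CCNE2), the ubiquitin ligase subunit SKP2 and the E2F partner TFDP1 fell in both lines: CCNE2 by 0.49 in HepG2-labelled and 0.54 in Huh7-labelled cells, SKP2 by 0.31 and 0.36, and TFDP1 by 0.20 and 0.44 (adjusted p at most 0.00826). The cyclin-dependent kinase inhibitors CDKN1B (p27) and CDKN2D (p19) rose in both lines. CDKN1B rose to 70.9 ± 3.16 against 48.2 ± 1.68 FPKM in HepG2-labelled and to 18.3 ± 2.25 against 14.2 ± 0.478 FPKM in Huh7-labelled cells (adjusted p = 0.000205 and 0.00541). CDKN2D rose to 13.6 ± 1.47 against 5.83 ± 0.919 FPKM and to 5.42 ± 1.61 against 2.81 ± 0.664 FPKM (adjusted p = 0.000893 and 0.0128). The other inhibitors on this list moved both ways. All treated values of CDKN1A were above, and all of CDKN2A below, the untreated values in both lines. CDKN2C lay below them in Huh7-labelled cells (8.15 to 16.8 against 20.7 to 22.5 FPKM). In HepG2-labelled cells CDKN2C lay above them (47.0 to 50.7 against 43.1 to 44.6 FPKM). The CDKN2B groups overlapped in both lines. The second E2F partner, TFDP2, rose by 0.41 and 0.24 (adjusted p = 0.000442 and 0.0148). CDC25A, a phosphatase that activates CDK2, fell to 5.29 ± 0.0551 FPKM with geniposide against 10.8 ± 0.240 FPKM without in HepG2-labelled cells (adjusted p = 0.00228), and had 43.6, 50.2 and 85.8 against 44.4, 43.5 and 43.9 FPKM in Huh7-labelled cells (0.38, adjusted p = 0.142, and 0.09 with adjusted p = 0.185 without library 3). Its effects differed between the lines by −1.29 (adjusted p = 0.00477), those of the checkpoint kinase CHEK1 by −0.42, of CDK2 by −0.52 and of cyclin D3 (CCND3) by −0.66 (adjusted p = 0.00729, 0.00815 and 0.0122).

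The 32 tested genes of mitosis gave a contrast to replication. In HepG2-labelled cells 1 rose and 16 fell with a median of −0.22, and in Huh7-labelled cells 2 rose and 21 fell with a median of −0.32, where 21.0% and 21.5%, and 16.4% and 18.1%, of all genes rose and fell. The counts were 1 and 21, and 0 and 25, without treated Huh7-labelled library 3, against 26.5% and 27.3%, and 22.6% and 23.5%, of all genes. Replication genes thus had the more negative median in HepG2-labelled cells (−0.40 against −0.22) and mitosis genes in Huh7-labelled cells (−0.32 against −0.05 for replication), and the difference of effects had a median of 0.19 for mitosis (10 higher, 4 lower) and −0.32 for replication (1 higher, 20 lower), where 14.1% and 13.7% of all genes were higher and lower. The 2 lists were not tested against each other. The mitotic kinases PLK1 and AURKA fell to 23.3 ± 0.569 against 38.5 ± 0.822 FPKM and to 15.1 ± 1.10 against 27.0 ± 0.940 FPKM in Huh7-labelled cells (adjusted p = 5.72e-06 and 1.78e-05). In HepG2-labelled cells PLK1 fell by 0.25 and AURKA by 0.44 (adjusted p = 0.00201 and 0.000365). The checkpoint kinase BUB1 fell by 0.77 and the cytokinesis motor KIF23 by 0.53 in Huh7-labelled cells (adjusted p = 2.22e-05 and 1.85e-05). The spindle assembly factor TPX2 fell to 57.6 ± 1.15 against 82.3 ± 0.867 FPKM in HepG2-labelled cells (adjusted p = 3.96e-05), and HMMR and the anaphase activator CDC20 fell there by 0.58 and 0.37 (adjusted p = 4.95e-05 and 0.000148). The effects on PLK1, BUB1 and ECT2 were higher in HepG2-labelled cells by 0.46, 0.63 and 0.54 (adjusted p = 0.000937, 0.00094 and 0.00115). The phosphatase CDC25B rose there to 77.1 ± 0.376 against 55.6 ± 1.82 FPKM (adjusted p = 5.93e-05) and fell in Huh7-labelled cells to 21.1 ± 1.53 against 25.7 ± 0.488 FPKM (adjusted p = 0.00253). The medians of the mitosis list were close in the 3 treated Huh7-labelled libraries, at −0.30, −0.34 and −0.31.

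**Figure D5:**
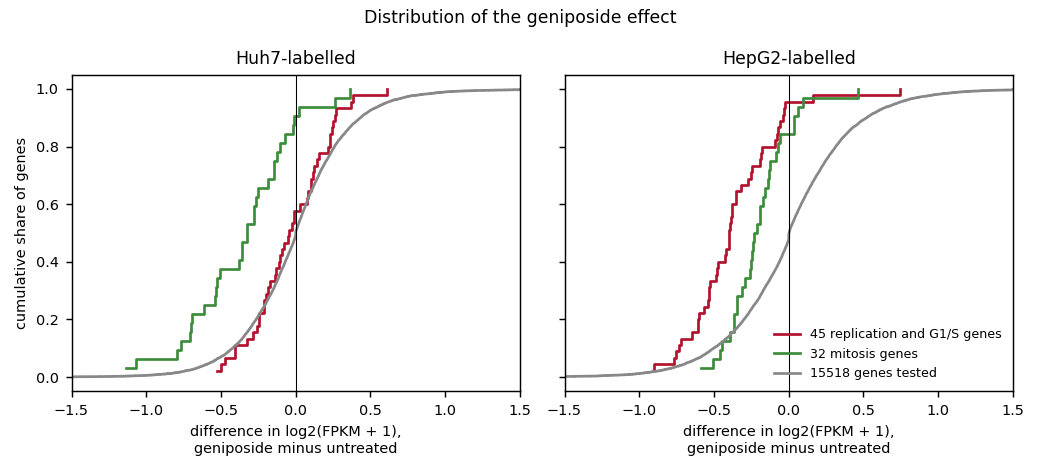
Cumulative share of genes by their change with geniposide (difference in log2(FPKM + 1)) for the 45 replication and G1/S genes, 32 mitosis genes and all 15518 genes tested, in Huh7-labelled (left) and HepG2-labelled cells (right). In HepG2-labelled cells the replication curve lies to the left with a median of −0.40, and in Huh7-labelled cells the mitosis curve does, with a median of −0.32 against −0.05 for replication.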

How the data were processed

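Per the labels' protocols, poly(A) RNA was fragmented, primed with random hexamers and made into adaptor-ligated libraries, with no step that marks the strand. The submitters' processing notes name CASAVA, fastp and the hg38 build, and no version, aligner or counter is given in the labels used. The authors deposited FPKM values per gene, in 12 columns matched to samples by name, with 0 left over. FPKM times gene length gave whole fragments for 100% of values within 0.05 fragments, and these sums are the depths. The total implied by the deposited scaling differed from this sum. It was 1.15 to 1.17 times the sum in geniposide-treated and 1.09 to 1.10 times in untreated Huh7-labelled libraries. In HepG2-labelled libraries it was 0.909 to 0.914 times the sum with geniposide and 0.895 to 0.912 times without. TPM and voom scaling do not use that total. For counting error only, a count of 0 allows up to 3 fragments, or 0.161 to 0.212 FPKM at a gene length of 1 kb.

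From these values log2(FPKM + 1) was fitted in limma 3.58.1 (R 4.3.3) with 4 group means over 12 samples and variances moderated along the mean level. Tests were two-sided, and p-values were adjusted by Benjamini-Hochberg (threshold 0.05) over the 15518 genes with at least 1 FPKM in 3 samples. A fold change on this scale understates that of low genes. In 10 simulated runs over 15518 genes with 200 changed, 76.0% of 1.5-fold and 94.3% of 2-fold changes were recovered in the HepG2-labelled comparison, and 75.5% and 93.7% in the Huh7-labelled comparison. False calls were 5.40% and 5.18% of the calls. Each gene had 1 pooled SD in every group, so the runs cannot compare recovery between the lines or show the effect of treated Huh7-labelled library 3. In the data more genes were called, 6602 in HepG2-labelled and 5357 in Huh7-labelled cells. Motifs were searched on both strands in RefSeq windows (GRCh38.p14).

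The members and lists were chosen with earlier results of these data known. Values per library are given for the member with the smallest p of each role in each line, members called in opposite directions, the 5 smallest p-values of the difference, and E2F1, MCM2, PCNA, RRM2, TYMS and TK1; other members whose call 1 library decides were added after their values were seen. From each other list up to 4 called genes per comparison are named; GMNN is among them, and 1 such gene is not reported here. Alternatives were the pseudocount (0.1), no filter or 5 FPKM, TPM, median-of-ratios and voom scaling, each line alone, a replicate block and leaving out each library.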

Additional observations from a re-analysis of the deposited data

Results flagged for a closer look

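The effect of geniposide differed between the lines for 21 of the 45 genes in limma's test of the difference itself (HepG2-labelled change minus Huh7-labelled change, adjusted p under 0.05), and 20 of these differences were negative. Of all genes tested 14.1% had a positive and 13.7% a negative difference. All values here are on the log2(FPKM + 1) scale. Among licensing and helicase genes the difference was −0.57 for ORC6, −0.75 for CDC6, −0.48 for MCM3, −1.14 for CDC45, −0.32 for GINS2, −0.29 for GINS4 and −0.62 for MCM10. Polymerase alpha and primase differed by −0.40 for POLA1, −0.62 for POLA2, −0.80 for PRIM1 and −0.51 for PRIM2. Clamp loading, RPA and ligation genes differed by −0.52 for RFC2, −0.39 for RFC3, −0.55 for RPA2 and −0.53 for LIG1. The remaining negative differences were −0.31 for TYMS, −1.13 for E2F2, −0.31 for CHAF1A, −0.51 for CHAF1B and −0.82 for CLSPN. SLBP had the 1 positive difference, 0.44. With the third treated Huh7-labelled library left out, 1 difference was positive and 29 negative, where 19.6% and 20.2% of all genes were. The part of that library in these values beyond that was not tested.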

How the results depend on the processing

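Of the calls on the 45 genes, 9 of 17 in Huh7-labelled cells, 30 of 34 in HepG2-labelled cells, 17 of 21 for the difference between lines and 27 of 36 for the untreated lines held in every alternative run. A fit of each line alone called 11 members in Huh7-labelled cells, 2 higher and 9 lower, where 9.82% and 11.2% of all genes were. In HepG2-labelled cells it called 37, 1 higher and 36 lower, where 24.3% and 25.2% of all genes were. The cause was not tested. Leaving out each library in turn gave 13 to 27 called members in Huh7-labelled cells (27 without treated Huh7-labelled library 3), 30 to 39 in HepG2-labelled cells, 17 to 30 for the difference and 35 to 43 for the untreated lines. Between the untreated lines (HepG2-labelled minus Huh7-labelled) the sign changed for 4 genes with TPM scaling and voom, which lower the median of all genes: MCM2 was −0.17 and −0.18, MCM5 −0.0125 and −0.0197, MCM7 −0.16 and −0.16, and RFC2 −0.0559 and −0.0636. Over single genes and alternatives, 128 calls were lost and 84 gained, 8 changed sign, 3286 kept sign and side of the threshold or were uncalled throughout, and 62 of those changed sign with no call in either fit.

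With the replicate number as a block the calls were 17 (6 higher, 11 lower) in Huh7-labelled cells, 33 (1 higher, 32 lower) in HepG2-labelled cells, 21 for the difference and 36 for the untreated lines. Of all genes 15.6% were then higher and 17.5% lower in Huh7-labelled cells, and 20.4% and 20.9% in HepG2-labelled cells. Same-numbered libraries did not deviate together (r −0.06 to 0.02), so the numbers do not pair them. Genes at the lowest levels, such as POLA2 with 125 to 549 fragments per library, carry the most counting error.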
